A study of Mus musculus with 3 samples.

Results

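The genes described here encode carriers of zinc, protons, bicarbonate, chloride, phosphate, calcium and magnesium. They were taken by gene symbol, as all members of 9 solute carrier (Slc) families that the array's annotation names, each read by the brightest of its probe sets over the 3 arrays. There were 60 such genes of 17886 named genes, covered by 114 probe sets. RNA came from mouse dendritic cells (DCs), the cells that present antigen to T cells, grown from wild type bone marrow in the cytokine GM-CSF for 5 days. They were sorted on surface PDL2, which binds the T cell inhibitory receptor PD-1. The groups were untreated PDL2-positive cells, PDL2-negative cells given lipopolysaccharide (LPS, a bacterial cell wall component) at 100 ng/ml, and untreated PDL2-negative cells. All share the same culture, which can hold macrophage-like cells besides DCs. The age and number of mice and the time with LPS are not given in the sources used here. Each group had 1 array, so the differences are described by size alone, with no replicate check and no test.

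Cells use zinc as a structural and catalytic part of many proteins and keep its free level in the cytosol very low. ZIP proteins, encoded by the Slc39a genes, carry zinc into the cytosol from outside the cell or from organelles, and ZnT proteins, encoded by the Slc30a genes, carry it out of the cytosol, across the plasma membrane or into organelles. Metallothioneins bind spare zinc, and the zinc sensor MTF-1 switches on metallothionein genes and Slc30a1 through metal response elements (MREs) in their promoters. In mouse DCs, LPS is known from earlier work to alter the expression of zinc transporters and to lower free zinc. The other families set pH, cell volume and ion gradients. Sodium-proton exchangers (Slc9a) and bicarbonate transporters (Slc4a) set the pH of cytosol and endosomes, in which antigen is processed. Cation-chloride cotransporters (Slc12a) set cell volume and chloride.

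Promoters of 3 genes of the zinc system, and of the member with the largest difference in the PDL2 comparison, are shown because they let the MRE letters be set beside the values below. Each runs from 250 bases before to 50 bases after the annotated gene start, on the gene's strand, from RefSeq on GRCm38.p6. Capitals mark TGCACNC or TGCGCNC on either strand. Slc30a1 (chr1:191906531-191906830, plus strand) exports zinc across the plasma membrane. Slc30a4 (chr2:122702614-122702913, minus strand) loads zinc into vesicles. Mt2 (chr8:94172368-94172667, plus strand) encodes metallothionein 2 and is not a transporter gene. Slc4a8 (chr15:100761497-100761796, plus strand) encodes a sodium-driven chloride-bicarbonate exchanger.
Slc30a1: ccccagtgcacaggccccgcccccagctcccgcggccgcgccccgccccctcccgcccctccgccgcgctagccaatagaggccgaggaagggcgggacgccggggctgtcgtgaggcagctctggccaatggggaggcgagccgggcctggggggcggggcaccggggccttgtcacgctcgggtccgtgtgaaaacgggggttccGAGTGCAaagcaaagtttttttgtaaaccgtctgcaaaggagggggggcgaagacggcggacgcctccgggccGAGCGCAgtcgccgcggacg
Slc30a4: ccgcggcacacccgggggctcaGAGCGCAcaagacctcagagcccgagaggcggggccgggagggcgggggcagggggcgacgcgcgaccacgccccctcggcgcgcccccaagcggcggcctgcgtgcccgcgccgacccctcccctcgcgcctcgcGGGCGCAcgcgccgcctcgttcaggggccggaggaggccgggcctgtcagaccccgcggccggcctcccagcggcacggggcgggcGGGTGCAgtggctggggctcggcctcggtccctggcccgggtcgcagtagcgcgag
Mt2: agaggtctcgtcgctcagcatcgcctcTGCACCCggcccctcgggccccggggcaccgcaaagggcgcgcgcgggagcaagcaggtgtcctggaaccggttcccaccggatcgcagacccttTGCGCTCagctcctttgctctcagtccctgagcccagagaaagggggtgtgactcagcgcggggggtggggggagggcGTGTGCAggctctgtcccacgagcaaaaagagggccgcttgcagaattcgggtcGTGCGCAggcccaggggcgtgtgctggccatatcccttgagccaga
Slc4a8: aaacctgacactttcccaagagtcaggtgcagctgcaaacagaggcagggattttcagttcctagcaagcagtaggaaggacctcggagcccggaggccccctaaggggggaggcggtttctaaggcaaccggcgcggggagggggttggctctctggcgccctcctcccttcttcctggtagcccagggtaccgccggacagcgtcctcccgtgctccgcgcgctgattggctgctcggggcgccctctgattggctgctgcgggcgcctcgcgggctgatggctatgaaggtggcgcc
The Slc30a1 window held 2 matches, starting 43 bases before and 30 bases after the gene start. The Slc30a4 window held 3 matches and the Mt2 window 4, and the Slc4a8 window held none. Of 60 members 49 had a promoter in the table, in 64 windows. One or both of these motifs stood in 28 of the 64 windows (43.8%) and in 12 of 25 windows of zinc transporter genes (48.0%), against 25.7% of all 32851 windows. The median GC content was 61.33% in the members' windows and 52.67% in all windows, and both motifs hold mostly G and C. A kappa-B motif, GGGNNNTTCC, stood in 4 of the 64 windows, against 5.56% of all windows, and an interferon response motif, TTTCNNTTTC, in 0 of 64, against 3.44%. A match describes letters only and shows no binding.

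Signals are the deposited log2 values after quantile normalization over 38533 probe sets. A floor was set at their median, 5.58, and genes at or below it on both arrays of a comparison were left out of it. Lower values were raised to the floor, and a difference to such a value is a lower bound. Differences of 2-fold or more were called. Pdcd1lg2, which encodes PDL2, had a log2 signal of 11.73 in PDL2-positive cells, 9.44 in LPS-treated PDL2-negative cells and 8.40 in untreated PDL2-negative cells and was thus highest in PDL2-positive cells. All 9 DC markers were above the floor on all 3 arrays. The 2 brightest probe sets of a gene differed from each other with a robust SD of 0.41 log2 in the LPS comparison, over 4230 genes, and of 0.29 in the PDL2 comparison, over 4251 genes. What that spread is due to was not tested, and the number of arrays limits the precision further.

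Of the 60 genes, 36 exceeded the floor on 1 array or more (60.0%, against 62.8% of all genes) and 32 on all 3. The 24 below the floor on every array were Slc39a5, Slc39a8 and Slc39a12 of the ZIP family, Slc30a2, Slc30a8 and Slc30a10 of the ZnT family, Slc9a2, Slc9a3, Slc9a4 and Slc9a5, Slc4a1, Slc4a3, Slc4a4, Slc4a5, Slc4a9 and Slc4a10, Slc12a1, Slc12a5 and Slc12a8, Slc8a2 and Slc8a3, and Slc24a1, Slc24a2 and Slc24a3. Many of these are known from particular tissues, such as Slc4a1 (band 3) from red cells, Slc30a8 from pancreatic beta cells and Slc12a1 from kidney. Of the 6 erythroid markers on the array, only Epor was above the floor, at 6.04, 6.12 and 6.03 in PDL2-positive, LPS-treated and untreated PDL2-negative cells. For 10 of the 60 genes, all below the floor, the deposited value was the same on all 3 arrays. The 5 genes with the highest mean signals were Slc30a4, Slc30a7, Slc39a6, Slc39a1 and Slc20a1, but probe sets differ in brightness, so this order is not one of RNA amounts.

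**Figure D1:**
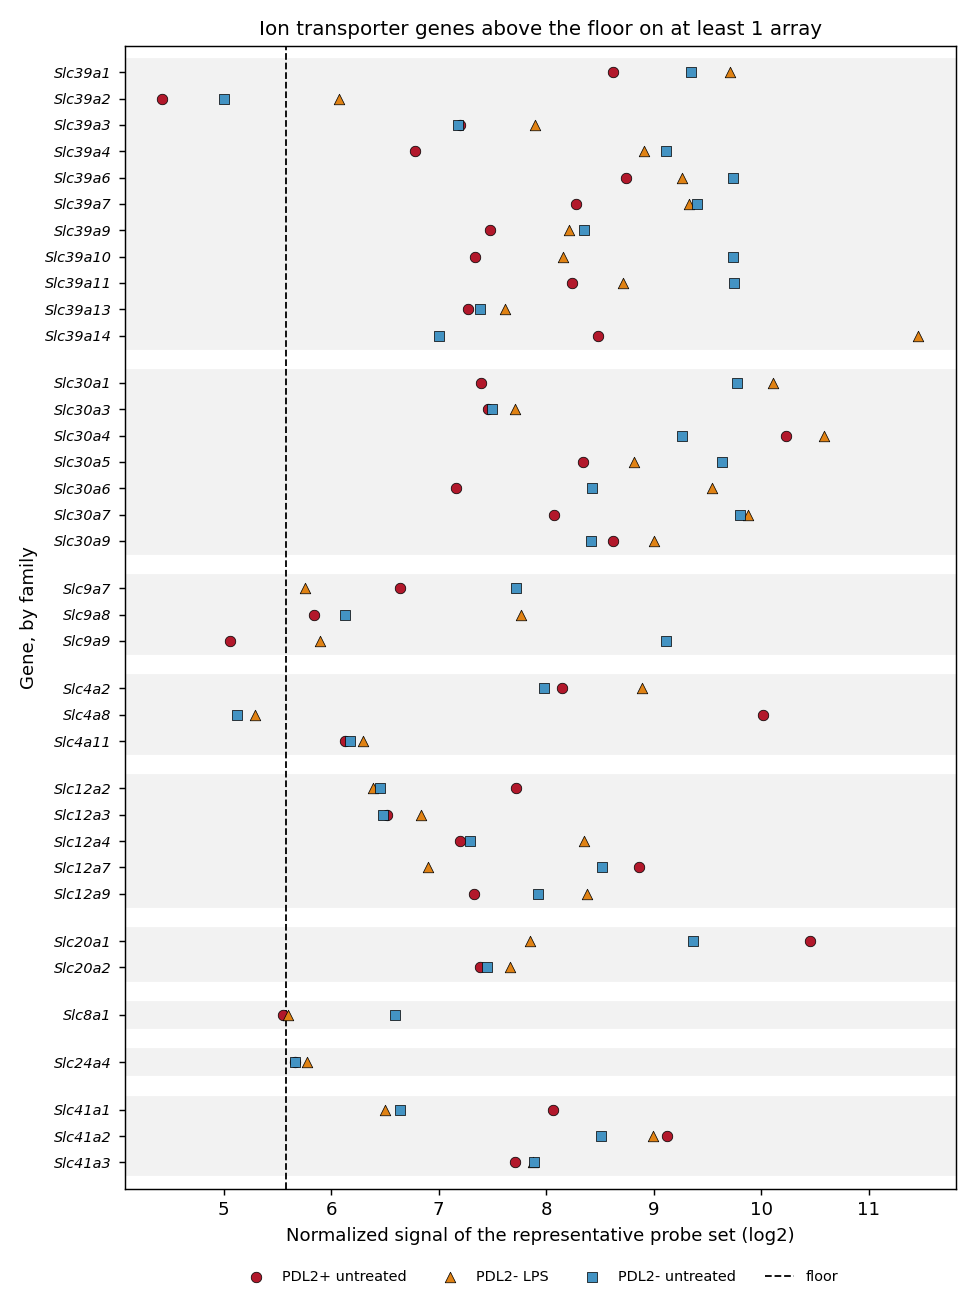
Normalized log2 signal (x axis) of the 36 ion transporter genes that exceeded the floor on any array (y axis, shaded by family), with 1 point per array and the floor of 5.58 as a dashed line. Slc4a8 stands at 10.02 in PDL2-positive cells and below the floor on both PDL2-negative arrays, Slc39a14 at 11.45 in LPS-treated cells, and Slc9a9 at 9.11 in untreated PDL2-negative cells.

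The LPS comparison asks how PDL2-negative cells differed with and without LPS. In LPS-treated cells Slc39a14 was 21.8-fold higher than in untreated cells and Slc9a9 9.25-fold lower, and 3 other members, Slc9a7, Slc9a8 and Slc12a7, differed by 3-fold or more. Of 35 members above the floor, 5 were higher (14.3%, against 9.17% of all 11000 genes above the floor) and 6 were lower (17.1%, against 13.8% of all genes). The median log2 difference of the members was 0.12, against 0.02 over all genes, and with median centring it was 0.03, against -0.06. These shares are near those of all genes. With the deposited values as they stand 3 members were higher, since Slc12a4 (0.84) and Slc30a6 (0.98 on the log2 scale) came under 2-fold. With 1 array per group, a difference in the mix of cells and a difference in RNA per cell cannot be told apart, here and below.

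The PDL2 comparison asks how untreated PDL2-positive cells differed from untreated PDL2-negative cells. Of 17 zinc transporter genes 8 were lower in PDL2-positive cells, by up to 5.26-fold for Slc39a10, while Slc4a8 was at least 21.7-fold higher. Of 35 members above the floor, 11 were lower (31.4%, against 13% of all 10926 genes) and 5 were higher (14.3%, against 10.1%). The median log2 difference was -0.11 over the members, against 0.01 over all genes. Of the 11 lower members, 8 were zinc transporters. Among members outside the zinc families, 3 of 18 were lower and 4 higher, with a median of -0.02. With all probe sets of a gene averaged, including those below the floor, 9 members were lower and 0 were called higher. On the log2 scale the averages differed by 0.62 for Slc39a14, 0.88 for Slc20a1 and 0.76 for Slc41a1. The averages of Slc4a8 and Slc12a2 in untreated PDL2-negative cells lay below the floor, so their 0.85 and 0.39 are lower bounds that leave a 2-fold difference undecided.

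**Figure D2:**
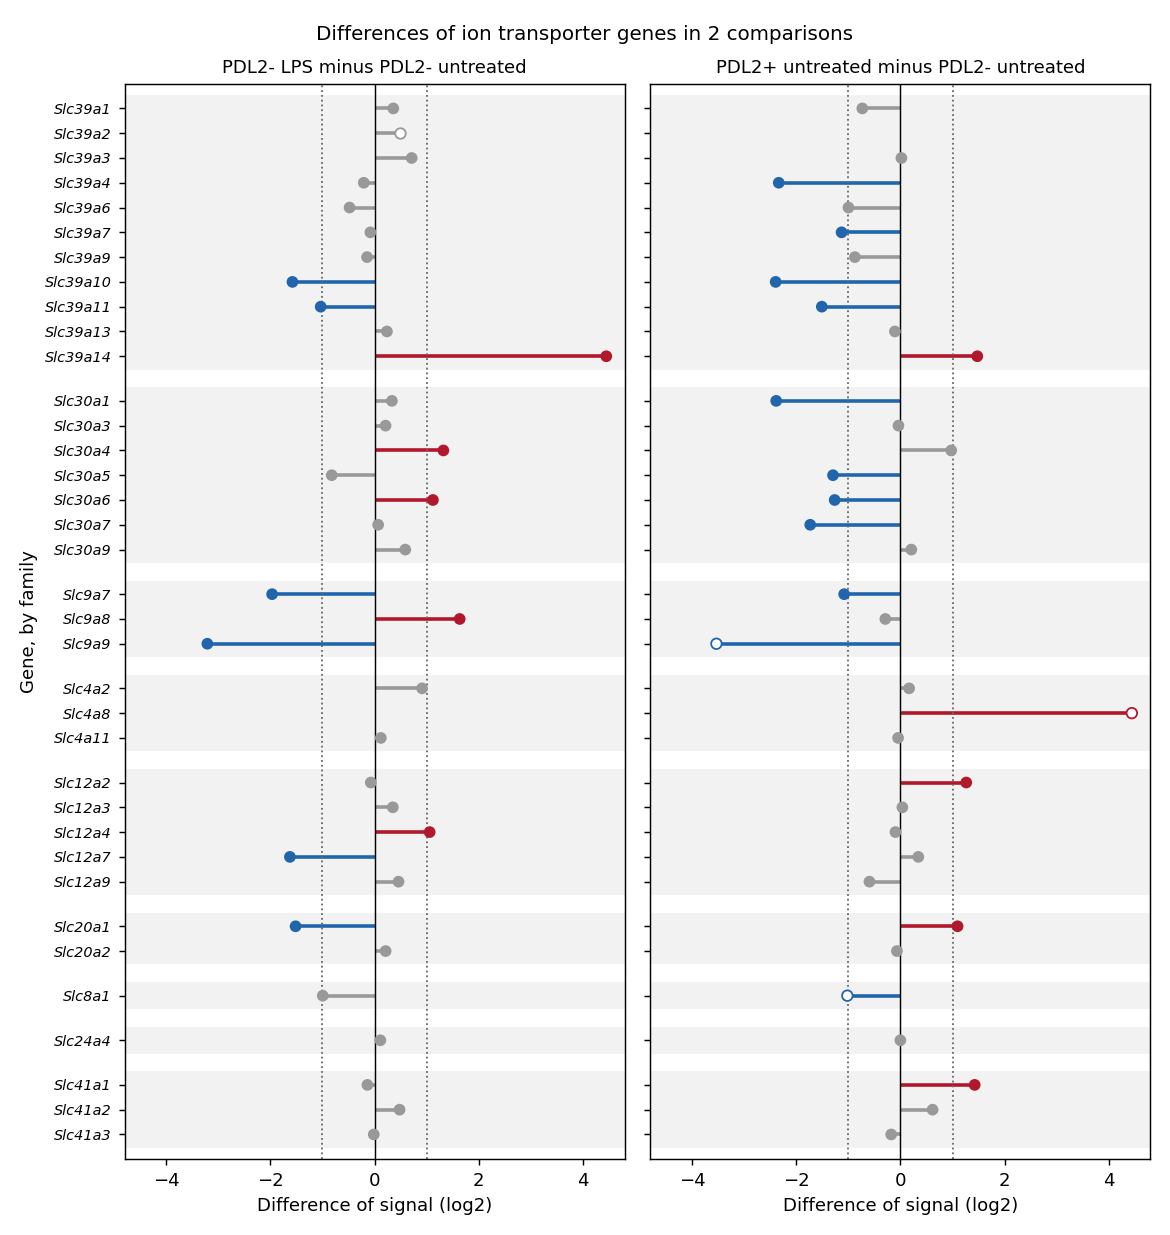
Log2 difference of signal (x axis) for each ion transporter gene above the floor (y axis), in LPS-treated minus untreated PDL2-negative cells (left) and in untreated PDL2-positive minus untreated PDL2-negative cells (right). Red and blue mark differences of at least 2-fold, dotted lines stand at 2-fold, and open points are lower bounds against the floor. Most zinc transporters (Slc39a and Slc30a) lie left of 0 on the right, where 13 of 17 have a negative value. Both panels subtract the same untreated array.

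Among the ZIP genes, Slc39a14 was the 1 member called higher in LPS-treated cells. Its product takes up zinc, manganese and iron, and in mouse liver the gene is known to be induced in the acute phase response. Its log2 signal was 8.48 in PDL2-positive cells, 11.45 in LPS-treated PDL2-negative cells and 7.01 in untreated PDL2-negative cells. It was thus highest after LPS, and PDL2-positive cells lay between the others. The log2 difference to untreated PDL2-negative cells was 4.45 with LPS and 1.48 in PDL2-positive cells (2.78-fold). Both further probe sets well above the floor gave 3.32 and 3.58 with LPS, and the fourth was above the floor only with LPS, at 5.62. In PDL2-positive cells those 2 further probe sets gave 0.62 and 0.41, so the call there rests on the brightest probe set.

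Slc39a10 and Slc39a11 were lower in both PDL2-positive and LPS-treated cells than in untreated PDL2-negative cells. Slc39a10, a plasma membrane zinc importer, had log2 signals of 7.34 in PDL2-positive cells, 8.16 with LPS and 9.73 in untreated PDL2-negative cells. It was 5.26-fold lower in PDL2-positive cells and 2.98-fold lower with LPS, and its second probe set gave -2.01 and -1.24 on the log2 scale. Slc39a11, the lone mammalian member of its ZIP subfamily, had signals of 8.24, 8.71 and 9.75 in the same order, which is 2.85-fold and 2.05-fold lower. The untreated PDL2-negative array is common to both comparisons of each gene.

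Slc39a4 and Slc39a7 were lower in PDL2-positive cells, and differed little with LPS. Slc39a4, the importer that takes up dietary zinc in the gut and whose loss causes acrodermatitis enteropathica in humans, had log2 signals of 6.78 in PDL2-positive cells, 8.91 with LPS and 9.12 in untreated PDL2-negative cells. It was 5.05-fold lower in PDL2-positive cells, and its difference with LPS was -0.21. Slc39a7 encodes the importer that releases zinc from the endoplasmic reticulum. Its signals were 8.28, 9.33 and 9.41 in the same order, a 2.19-fold lower value in PDL2-positive cells. PDL2-positive cells stand apart for both genes, with LPS-treated and untreated PDL2-negative cells close together.

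No call was made for the remaining ZIP genes against untreated PDL2-negative cells. Slc39a6, which has been linked to DC maturation in mice, had log2 signals of 8.74 in PDL2-positive cells, 9.26 with LPS and 9.74 in untreated PDL2-negative cells. Its difference in PDL2-positive cells (-0.998, or 1.998-fold) lay just under the threshold, and its second probe set gave -0.64. With LPS these probe sets gave -0.48 and 0.08. Slc39a1, a plasma membrane importer found in most cells, had 8.62 in PDL2-positive cells, 9.71 with LPS and 9.35 in untreated PDL2-negative cells. Slc39a9, a Golgi importer, gave a log2 difference of -0.87 in PDL2-positive cells, and Slc39a3 and Slc39a13 gave 0.02 and -0.11. Slc39a2 was above the floor with LPS alone, at 6.07, so its difference of 0.50 is a lower bound and a 2-fold difference is undecided.

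Among the ZnT genes, Slc30a1, the exporter that moves zinc out of the cell, had log2 signals of 7.39 in PDL2-positive cells, 10.11 with LPS and 9.78 in untreated PDL2-negative cells. It was 5.22-fold lower in PDL2-positive cells than in untreated PDL2-negative cells, and its second probe set gave a log2 difference of -1.22. With LPS the values were 0.33 and 0.84, neither past 2-fold. Slc30a4 had 10.23 in PDL2-positive cells, 10.58 with LPS and 9.26 in untreated PDL2-negative cells. It was 2.50-fold higher with LPS, and at 1.96-fold in PDL2-positive cells it lay just under the threshold.

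The genes of the early secretory pathway exporters, Slc30a5, Slc30a6 and Slc30a7, were all lower in PDL2-positive cells. Their products carry zinc into the Golgi and its vesicles, where enzymes such as alkaline phosphatases receive it, and the Slc30a5 and Slc30a6 products work as a pair. Slc30a7 had log2 signals of 8.07 in PDL2-positive cells, 9.87 with LPS and 9.80 in untreated PDL2-negative cells (3.32-fold lower in PDL2-positive cells), but its second probe set gave a difference of only -0.27. Slc30a6 had 7.16, 9.54 and 8.42 in the same order, and was thus 2.40-fold lower in PDL2-positive cells and 2.17-fold higher with LPS. Slc30a5 had 8.34, 8.81 and 9.63, which is 2.45-fold lower in PDL2-positive cells and a difference of -0.82 with LPS. With LPS the genes of this pair therefore differed from untreated cells in opposite directions, and in PDL2-positive cells in the same one. The other ZnT genes above the floor, Slc30a3, known from synaptic vesicles, and Slc30a9, a mitochondrial transporter, gave -0.04 and 0.21 in PDL2-positive cells and 0.21 and 0.59 with LPS.

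Over both zinc families, 8 of 17 genes above the floor were lower in PDL2-positive than in untreated PDL2-negative cells and 1, Slc39a14, was higher, with a median log2 difference of -0.998 against 0.01 over all genes. With no floor, which adds 7 genes, that median was -0.36 over 24. Of the 8, 4 were ZIP genes of 10 above the floor (median -0.94) and 4 were ZnT genes of 7 (median -1.26), so genes for import into and export from the cytosol were both among them. With LPS 2 of 18 were lower and 3 higher, with a median of 0.22, which was 0.03 with the deposited values as they stand and 0.05 with median centring. Between PDL2-positive and LPS-treated cells, 7 of 18 zinc transporter genes were lower in PDL2-positive cells and 0 were higher, against 12.6% lower and 15.6% higher among 11042 genes. All 18 had a negative log2 difference, from -2.97 to -0.25, and all 18 were also negative with the deposited values as they stand and with median centring. These signs are those of the representative probe sets. The second probe set of Slc30a7 gave 0.24, and with no floor 22 of 24 zinc transporter genes were negative and 2 positive. This comparison shares an array with each of the others. Of 8 macrophage marker genes, 8 were lower in PDL2-positive than in untreated PDL2-negative cells, against 13% of all genes, with a median log2 difference of -4.92. Their summed signal was 10.39 on the log2 scale in PDL2-positive cells, 14.82 with LPS and 15.19 in untreated PDL2-negative cells, and Mrc1 was below the floor in PDL2-positive cells. Of 5 monocyte markers 5 were lower, against 13% of all genes (summed signal 11.22, 14.02 and 14.55 in the same order). Of 9 DC markers 3 were higher in PDL2-positive cells, Ccr7 by 76.7-fold, Zbtb46 by 5.15-fold and Flt3 by 3.71-fold, and 1, Itgax, was lower by 3.18-fold. Over all genes 10.1% were higher and 13% lower. The summed signal of the DC markers was 16.28, 16.16 and 16.07 in the same order. Of the markers of mast cells, basophils and eosinophils, 1 of 4 above the floor was higher, against 10.1% of all genes. It was Kit, by 11.4-fold (summed signal of the list 10.49, 9.32 and 9.16), and Ms4a2, Fcer1a and Epx were below the floor on every array. These marker genes were named after their values were seen. The part of these cells in the zinc transporter values was not tested.

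**Figure D3:**
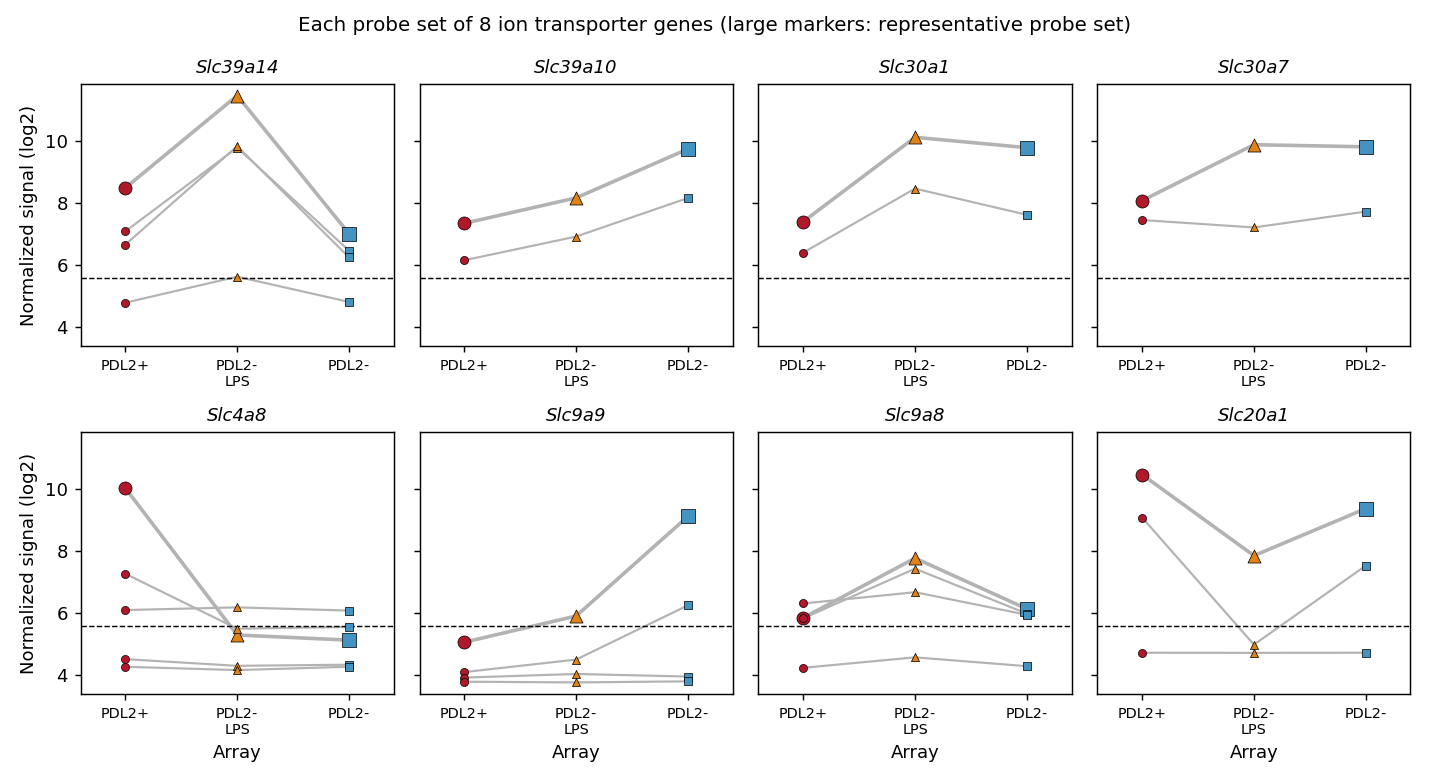
Normalized log2 signal (y axis) of every probe set of 8 ion transporter genes on the 3 arrays (x axis), with large markers for the representative probe set, a line for each probe set and the floor dashed. For Slc39a10, Slc30a1 and Slc20a1 the 2 brightest probe sets have the same order of arrays. For Slc4a8 the 3 probe sets above the floor differ, from at least 4.44 to 0.02 in the PDL2 comparison.

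The other genes of zinc binding and zinc response were a list of 11, of which 9 were above the floor. With LPS 3 were higher and 1 lower, and in PDL2-positive cells 1 was higher and 0 lower. Over all genes 9.17% were higher and 13.8% lower with LPS, and 10.1% and 13% in PDL2-positive cells. Mt2, read by 1 probe set above the floor, had log2 signals of 11.10 in PDL2-positive cells, 13.15 with LPS and 8.31 in untreated PDL2-negative cells. It was 28.6-fold higher with LPS and 6.91-fold higher in PDL2-positive cells. Mt2 and Slc30a1, whose promoter windows both held MRE letters, thus went opposite ways in PDL2-positive cells (2.79 and -2.39 on the log2 scale). Slc30a4, whose window also held these letters, gave 0.97 there. With LPS the values of Mt2, Slc30a4 and Slc30a1 were 4.84, 1.32 and 0.33. Any part of the MRE letters in these values was not tested. Mt1, chosen after its values were seen, gave 0.31 in PDL2-positive cells and 1.13 with LPS, where its probe sets ran from -0.81 to 1.13. S100a9, a subunit of the zinc-binding neutrophil protein calprotectin, was lower with LPS, with a log2 difference of -1.65. Of 9 neutrophil and granulocyte precursor markers, which include S100a9, 5 were lower with LPS and 1 was higher, against 13.8% and 9.17% of all genes. The higher one was Lcn2 (12.49 with LPS, against 8.77 in untreated cells). The summed signal of the 9, Lcn2 included, was 13.73 with LPS and 14.20 in untreated cells. The part of these cells was not tested. Znfx1 (3.19 with LPS) encodes a zinc finger protein of antiviral defence and no carrier of zinc.

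**Figure D4:**
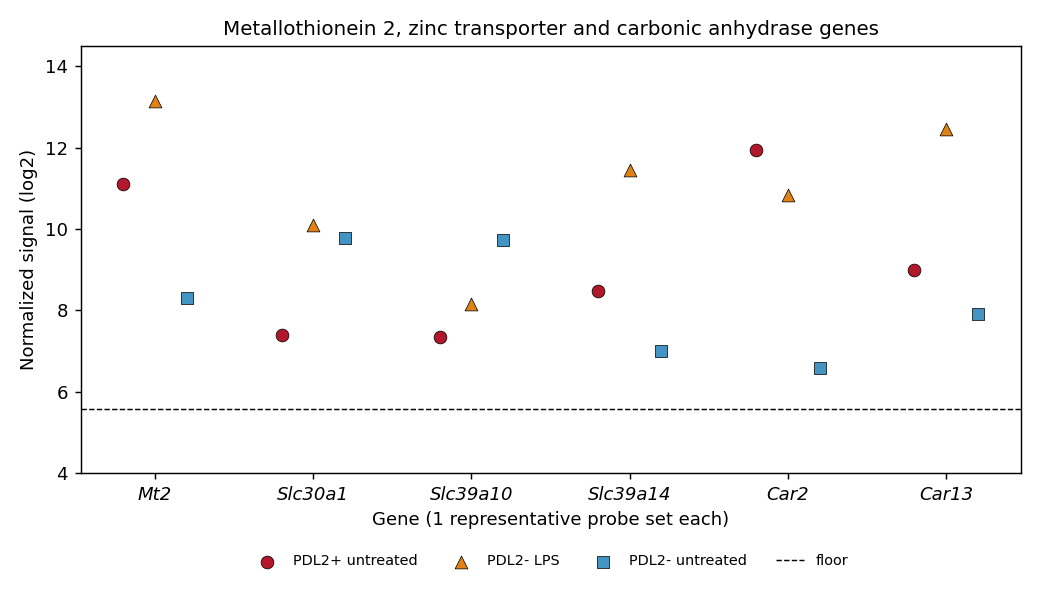
Normalized log2 signal (y axis) of metallothionein 2, 3 zinc transporter and 2 carbonic anhydrase genes (x axis) on the 3 arrays, with the floor dashed. Mt2 is higher in PDL2-positive (11.10) than in untreated PDL2-negative cells (8.31), while Slc30a1 is lower (7.39 and 9.78). Car2 is higher in PDL2-positive and LPS-treated cells than in untreated PDL2-negative cells.

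Among the sodium-proton exchangers, 3 of 7 genes were above the floor, and all are known for the pH of organelles. Slc9a9, an exchanger of recycling endosomes, had log2 signals of 5.06 in PDL2-positive cells, 5.90 with LPS and 9.11 in untreated PDL2-negative cells. It was at least 11.6-fold lower in PDL2-positive cells and 9.25-fold lower with LPS. Its second probe set was above the floor in untreated PDL2-negative cells alone, at 6.24, and the other 2 were below it everywhere. With all 4 averaged, the signal exceeded the floor in untreated PDL2-negative cells alone, by 0.20, which leaves the size of the difference undecided. Slc9a7, an exchanger of the trans-Golgi network, had 6.64, 5.76 and 7.72 in the same order, which is 2.12-fold lower in PDL2-positive cells and 3.91-fold lower with LPS. Slc9a8, a Golgi exchanger, had 5.84 in PDL2-positive cells, 7.77 with LPS and 6.13 in untreated PDL2-negative cells, and was highest with LPS. It was 3.10-fold higher with LPS, and its further probe sets above the floor gave 1.45 and 0.73.

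Among the bicarbonate transporters, Slc4a8 was above the floor only in PDL2-positive cells, at 10.02, against 5.29 with LPS and 5.12 in untreated PDL2-negative cells. The difference was at least 21.7-fold to either PDL2-negative array. The third brightest probe set had 7.26 in PDL2-positive cells and was below the floor on both other arrays (at least 1.68 on the log2 scale). The second brightest, at 6.09, 6.18 and 6.08 in PDL2-positive, LPS-treated and untreated PDL2-negative cells, showed no such difference, and 2 more were below the floor everywhere. Slc4a2, which exchanges chloride for bicarbonate in most cells, had 8.14, 8.89 and 7.98, a difference of 0.91 with LPS and 0.17 in PDL2-positive cells. Slc4a11 gave 0.12 and -0.05.

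Carbonic anhydrases, which make bicarbonate and protons from carbon dioxide, and regulators of sodium-proton exchange formed a list of 19, of which 11 were above the floor in the LPS comparison and 10 in the PDL2 comparison. With LPS 4 were higher, and in PDL2-positive cells 3 were, with 0 lower in either. Over all genes 9.17% were higher and 13.8% lower with LPS, and 10.1% and 13% in PDL2-positive cells. Car2 had log2 signals of 11.94 in PDL2-positive cells, 10.84 with LPS and 6.59 in untreated PDL2-negative cells (higher by 5.36 in PDL2-positive cells and by 4.25 with LPS on the log2 scale). Car13 was 23.6-fold higher with LPS (12.47, against 7.90 untreated) and 2.13-fold higher in PDL2-positive cells. Car4 was above the floor only with LPS, at 7.92, and at least 5.05-fold higher.

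Among the cation-chloride cotransporters, 5 of 8 genes were above the floor. Slc12a2, which loads cells with sodium, potassium and chloride, had log2 signals of 7.72 in PDL2-positive cells, 6.39 with LPS and 6.46 in untreated PDL2-negative cells, a 2.40-fold higher value in PDL2-positive cells. Slc12a7, a potassium-chloride exporter, had 8.87, 6.90 and 8.52 in the same order and was 3.08-fold lower with LPS. Its second probe set gave -0.36 there, and the average of its probe sets -0.995, just under 2-fold. Slc12a4, another potassium-chloride exporter, had 7.20, 8.35 and 7.29, and was 2.08-fold higher with LPS. Slc12a9, a less studied relative, had 7.33 in PDL2-positive cells, 8.38 with LPS and 7.92 in untreated PDL2-negative cells, 2.08-fold lower in PDL2-positive than in LPS-treated cells. Slc12a3, known from the kidney, gave 0.35 with LPS and 0.04 in PDL2-positive cells.

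The kinases and channels listed beside these cotransporters gave 1 higher and 0 lower with LPS, and 1 of each in PDL2-positive cells, of 13 above the floor. These counts do not exceed the shares of all genes, 9.17% higher and 13.8% lower with LPS and 10.1% and 13% in PDL2-positive cells. Wnk1, a kinase that acts on the cotransporters in response to chloride and cell volume, was 2.35-fold higher in PDL2-positive cells (12.88, against 11.65 in untreated PDL2-negative cells). Its probe sets ran from 0.43 to 1.98 on the log2 scale in that comparison. Stk39, the kinase that WNK kinases activate, was 2.18-fold higher with LPS. Clcn7, a lysosomal chloride-proton exchanger, was 2.77-fold lower in PDL2-positive cells, where its probe sets ran from -1.47 to -0.38 on the log2 scale.

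Slc20a1, a phosphate importer also used as a receptor by some retroviruses, was higher in PDL2-positive cells and lower with LPS than in untreated PDL2-negative cells. Its log2 signal was 10.46 in PDL2-positive cells, 7.85 with LPS and 9.36 in untreated PDL2-negative cells. It was 2.14-fold higher in PDL2-positive cells and 2.86-fold lower with LPS, and between PDL2-positive and LPS-treated cells the log2 difference was 2.61. The second probe set gave 1.55 in PDL2-positive cells and at least 1.94 lower with LPS, where it was below the floor. Slc20a2, its relative, gave -0.07 and 0.21, and its second probe set gave -0.55 and -0.44. The 0.21 comes from the normalization, since the deposited values with and without LPS were equal there. Xpr1, the phosphate exporter, was lower in both, 2.71-fold in PDL2-positive cells and 5.74-fold with LPS. Its probe sets ran from -1.44 to -0.73 in PDL2-positive cells and from -2.52 to -1.02 with LPS.

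The phosphate exporter was 1 of 16 other carriers of phosphate and magnesium on a list, 15 of them above the floor. With LPS 7 of these were lower and 1 higher, and in PDL2-positive cells 2 were lower and 2 higher. Over all genes the shares were 13.8% lower and 9.17% higher with LPS, and 13% lower and 10.1% higher in PDL2-positive cells, so the PDL2 counts of this list are near the shares of all genes. Mmgt1, a membrane protein linked to magnesium transport and to membrane protein insertion, was 8.57-fold lower with LPS. Slc37a2, a sugar-phosphate exchanger, was 5.41-fold lower in PDL2-positive cells and 2.75-fold lower with LPS. Of the magnesium transporter members, Slc41a1, a sodium-magnesium exchanger, had log2 signals of 8.07 in PDL2-positive cells, 6.50 with LPS and 6.64 in untreated PDL2-negative cells (2.68-fold higher in PDL2-positive cells). Its other probe set was below the floor on all arrays. Slc41a2 gave 0.62 in PDL2-positive cells and 0.48 with LPS, and Slc41a3 gave -0.18 and -0.02. A second probe set of Slc41a3, above the floor on all arrays, gave -0.20 in PDL2-positive cells and -1.17 with LPS.

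Sodium-calcium exchangers were near the floor. Slc8a1, which removes calcium from excitable cells, had log2 signals of 5.55 in PDL2-positive cells, 5.60 with LPS and 6.60 in untreated PDL2-negative cells. It was at least 2.03-fold lower in PDL2-positive cells and 1.99-fold lower with LPS, so that the call differs while the values hardly do. Slc24a4 had 5.67, 5.78 and 5.67 in the same order. Of 10 genes for calcium pumps and mitochondrial calcium uptake above the floor, 3 were lower in PDL2-positive cells and 2 with LPS, and 0 were higher in either. Over all genes 13% were lower in PDL2-positive cells and 13.8% with LPS, and 10.1% and 9.17% were higher. Atp2b1, a plasma membrane calcium pump, was 3.38-fold lower in PDL2-positive cells and 2.16-fold lower with LPS. Its probe sets ran from -1.76 to -0.91 and from -1.17 to -0.75 on the log2 scale. Atp2a2, the pump of the endoplasmic reticulum, was 3.32-fold lower in PDL2-positive cells, where its probe sets ran from -1.73 to -0.47. The mitochondrial exchanger Slc8b1 was 2.37-fold lower with LPS. Of the sodium-potassium pump genes, 3 were above the floor and 2 were lower in PDL2-positive cells (against 13% of all genes). These were Atp1b3, a beta subunit of the pump, by 3.52-fold and Fxyd5, a modulator, by 5.41-fold. Fxyd5 was also lower with LPS, by 2.21-fold.

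Between PDL2-positive and LPS-treated PDL2-negative cells, 5 of 36 members were higher in PDL2-positive cells (13.9%, against 15.6% of all genes) and 10 were lower (27.8%, against 12.6%), with a median log2 difference of -0.43, against -0.05 over all genes. The higher members were Slc4a8, Slc20a1, Slc12a7, Slc41a1 and Slc12a2. The lower members besides zinc transporters were Slc9a8, Slc12a4 and Slc12a9, and the zinc transporters were Slc39a1, Slc39a4, Slc39a7, Slc39a14, Slc30a1, Slc30a6 and Slc30a7. Slc39a14 (-2.97) and Slc30a1 (-2.72) had the lowest values. With the deposited values as they stand, Slc12a4 (-0.98), Slc12a9 (-0.89) and Slc39a7 (-0.95) came under 2-fold. With probe sets averaged, Slc41a1 (at least 0.79), Slc4a8 (at least 0.85), Slc12a2 (at least 0.39), Slc30a7 (-0.78) and Slc12a9 (-0.53) were not called.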

How the data were processed

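Total RNA from 3 sorted DC samples, 1 per group, was hybridized to Affymetrix mouse arrays, per the labels' protocols and the probe annotation. The authors deposited log2 summaries by probe set, a scale taken from the spread of the values. How they corrected background, normalized and summarized the probes is not stated in the labels. Of 38546 probe sets, 13 controls were left out. The 75th percentiles differed by 0.22 (over the tolerance of 0.1), so values were quantile-normalized. In all 33987 probe sets name 1 gene, and 33800 of these were found by Entrez number in the RefSeq gene table. Members came from a rule on gene symbols. Named were members past 2-fold in any of 3 comparisons, the 5 of highest signal, and up to 3 genes per further list. Members and lists were chosen with earlier results of these data known. Marker lists of lymphocytes, with 1 of 6 genes above the floor, and of mast cells, basophils and eosinophils, with 4 of 7 above it and medians of 0.22 with LPS and 0.27 in PDL2-positive cells (1 gene called higher), were also read. The method was run on data simulated from the untreated PDL2-negative array with an assumed noise. Changes were placed in bright genes only, so that run does not cover genes near the floor. Alternatives were other scalings, floors, thresholds and averaged probe sets. Python 3.11.15, pandas 2.3.3 and numpy 2.4.6 were used.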

Additional observations from a re-analysis of the deposited data

How the results depend on the processing

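No paired analysis was possible because each group has 1 array. Without further normalization the median over all genes shifted by -0.12 on the log2 scale in the LPS comparison, and 3 members were higher there, Slc12a4 and Slc30a6 falling under 2-fold. With the floor at the 75th percentile 3 members were higher with LPS, 2 were higher in PDL2-positive cells (with a median of -0.55), and 3 were higher in PDL2-positive than in LPS-treated cells. With the mean of all probe sets 0 members were higher in PDL2-positive than in untreated PDL2-negative cells and 2 than in LPS-treated cells. Probe sets below the floor enter the mean. For Slc39a14, further probe sets above the floor also gave only 0.62 and 0.41 against untreated PDL2-negative cells. Slc4a8 in both comparisons, and Slc9a9 in PDL2-positive cells and with LPS, had only lower bounds under 2-fold, because 1 average lay below the floor. At 1.5-fold 8 members were higher with LPS. At 3-fold 2 were higher and 3 lower with LPS, 5 lower (4 of them zinc transporters) and 1 higher in PDL2-positive cells, and 3 higher and 6 lower in PDL2-positive than in LPS-treated cells. The count of 8 lower zinc transporters in PDL2-positive cells was 7 with the higher floor, 11 at 1.5-fold, and 8 with the other scalings, no floor or averaged probe sets. The zinc transporter counts were added after the data had been seen. No called difference changed sign under any scaling, floor or averaging tried. For Slc20a2, Slc30a3 and Slc4a11 the deposited values with and without LPS were equal, and their differences of 0.12 to 0.21 come from the normalization. The same holds for Slc12a3 (0.04) and Slc24a4 (-0.002) between PDL2-positive and untreated PDL2-negative cells. Values near the floor or from 1 probe set are the least certain.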
